A study of Mus musculus with 30 samples.

Results

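CD4+ T cells were compared with CD11c+ cells from the same kind of primed mouse, gene by gene across the transcriptome. The members were chosen by sample title alone: 3 arrays of CD4+ T cells and 3 arrays of CD11c+ cells from mice primed with ovalbumin (OVA) in complete Freund's adjuvant (CFA), 6 of the 30 arrays of the series. Every mouse was a DO11.10 RAG2-/- BALB/c animal of 8 to 10 weeks, in which the T cells carry 1 transgenic receptor for an OVA peptide and no B cells or T cells with other receptors can form. The primed mice received CFA/OVA under the skin, 100 µg per mouse, and the CD4+ T cells were taken 10 days later. They were obtained from axillary lymph nodes by magnetic negative selection, and the CD11c+ cells came from spleen and lymph nodes pooled together, by binding to CD11c microbeads. Purity was given as over 90% for both. Tissue and isolation therefore changed together with the cell type, and their parts in any difference cannot be told apart from that of lineage. Further groups of 3 CD4 and 3 CD11c arrays were used to see whether the lineage difference was repeated or altered: primed mice treated with control IgG at 10 mg/kg (axillary nodes for CD4), orally tolerised mice given OVA in drinking water (mesenteric nodes for CD4), and unimmunised mice (pooled nodes and spleen for CD4). Arrays of primed mice treated with abatacept, a CTLA-4 fusion protein that blocks CD80 and CD86, entered the fit for its estimate of spread. Beyond that, they served only in the choice of probe sets and of the genes tested.

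CD4+ helper T cells recognise antigen through the T cell receptor and its CD3 chains, and need co-stimulation through receptors such as CD28 to respond. CD11c is an integrin of dendritic cells, which take up antigen, show it on MHC class II molecules and supply CD80, CD86, cytokines and chemokines. Macrophages, monocytes, neutrophils and natural killer cells can carry CD11c too, so a CD11c+ preparation from the spleen can hold them.

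The values are log2 RMA values, in which a difference of 1 is a 2-fold difference. All differences below are CD4 minus CD11c, so a positive one means a higher level in CD4 cells. Of 17097 genes with a probe set of 1 symbol, 10838 exceeded the median of the array on 3 or more of the 30 arrays and were tested with limma over all 30 arrays. To be called, a gene needed an adjusted p (Benjamini-Hochberg) under 0.05 together with a difference of at least 2-fold. In primed mice 691 genes (6.38% of those tested) were called higher in CD4 cells and 1603 (14.8%) were called higher in CD11c cells. At the adjusted p alone, with no minimum size, 6854 genes (63.2%) passed, 3696 of them higher in CD4 cells and 3158 higher in CD11c cells, so the larger count lay on the other side from that at 2-fold. After a further quantile normalization 921 genes were called higher in CD4 cells and 1436 in CD11c cells. For 7712 genes (71.2%) the 3 CD4 arrays did not overlap the 3 CD11c arrays. Array values correlated at 0.993 to 0.994 within the CD4 group, at 0.995 within the CD11c group and at 0.912 to 0.918 between them. The median difference over all genes tested was 0.07. Among large differences those towards CD11c cells were the more frequent: 493 genes were at least 8-fold higher in CD11c cells and 80 in CD4 cells, and at 32-fold the counts were 150 and 4. Above the array median on all 3 CD4 arrays and on no CD11c array were 251 genes, and 667 showed the reverse, against 8380 above the median on all 6 arrays. A mean under the array medians (4.46 to 4.54) was not shown to be above background, so that a fold against it is not exact. In RNA of whole preparations, more cells of a type cannot be told apart from more RNA of a gene in each cell. The labels do not say that the replicates are separate mice, so the p-values rest on the spread among these arrays, part of which may be technical.

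The markers of the target cells were where the labels put them. Of 14 T cell markers, 13 were called higher in CD4 cells, with a median difference of 3.77. *Cd3e*, a signalling chain of the receptor complex, was at 11.50, 11.52 and 11.56 on the CD4 arrays, against 7.40, 8.16 and 7.79 on the CD11c arrays. All 3 CD11c arrays therefore read T cell transcripts above the array median, as they did for 10 to 11 of the 14 markers, and the mean of the list was 9.97 to 10.11 on CD4 arrays and 6.56 to 6.82 on CD11c arrays. *Cd4* itself was at 10.33, 10.37 and 10.50 in CD4 cells, against 8.58, 8.99 and 8.81 in CD11c cells, a difference of 1.61 (limma adjusted p = 9.6e-11). Of 11 conventional dendritic cell markers, 9 were called higher in CD11c cells, together with all 9 markers of mature dendritic cells and 6 of 8 markers of plasmacytoid dendritic cells.

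The CD11c preparation held transcripts of several other cells as well. All 10 monocyte and macrophage markers, all 9 markers of red pulp macrophages (the iron-recycling macrophages of the spleen), 10 of 11 neutrophil markers, 7 of 10 natural killer and innate lymphoid markers and all 6 erythroid markers tested were called higher in CD11c cells. The mean of the red pulp macrophage list was 3.18 to 3.45 on CD4 arrays and 9.95 to 10.19 on CD11c arrays. For neutrophil markers it was 3.48 to 3.83 on CD4 arrays and 8.80 to 9.01 on CD11c arrays, and for erythroid markers 4.01 to 4.54 and 8.21 to 8.63. The mean of 4 B cell markers was 4.34 to 4.43 on CD4 arrays and 4.98 to 5.09 on CD11c arrays. The CD4 arrays thus read the macrophage and neutrophil lists at or below the array median, and the CD11c arrays read them far above it. The part of these cells in each difference towards CD11c cells was not tested.

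**Figure D1:**
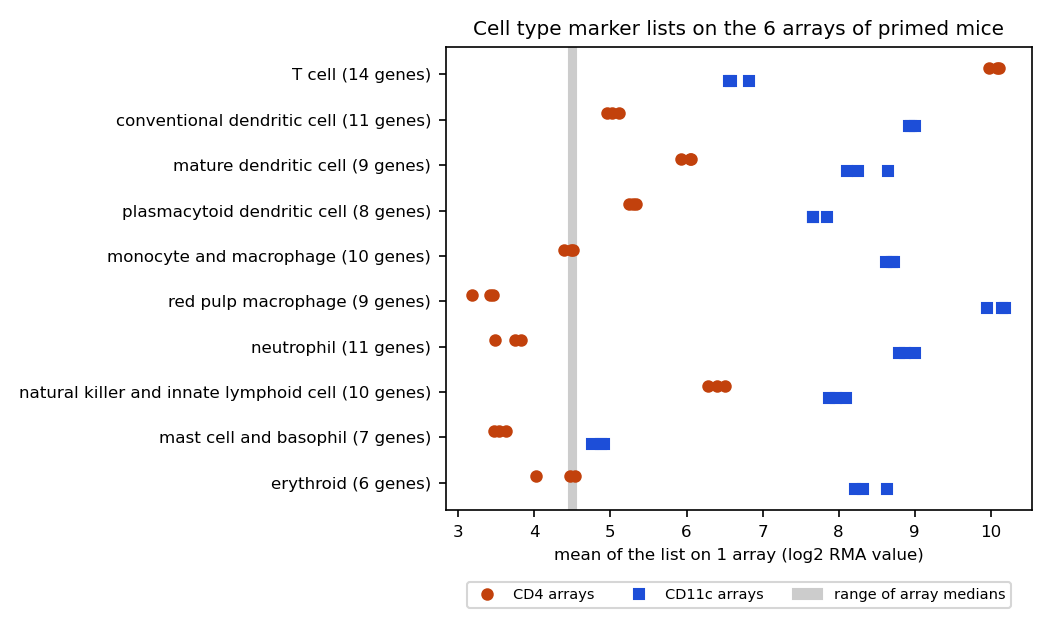
Mean log2 RMA value of each marker list (lists with at least 6 genes tested) on each of the 3 CD4 arrays (circles) and 3 CD11c arrays (squares) of primed mice, with the range of array medians in grey. The T cell list sits at 9.97 to 10.11 on CD4 arrays and 6.56 to 6.82 on CD11c arrays, and every other list lies higher on CD11c arrays.

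Sex-linked transcripts differed as well. *Xist*, the RNA of the inactive X chromosome and so a mark of female cells, had the largest positive difference of all called genes. It was at 10.27, 9.31 and 10.89 on CD4 arrays, against 4.55, 4.84 and 4.12 on CD11c arrays. *Eif2s3y*, a Y-linked gene, was at 8.49, 8.82 and 8.54 on CD4 arrays, against 8.64, 8.58 and 8.53 on CD11c arrays. The CD4 arrays of primed mice thus carried both transcripts and the CD11c arrays carried mainly the male one. Its part in other differences was not tested.

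After *Xist*, the 11 genes furthest towards CD4 cells were *Themis* (5.45), a regulator of receptor signalling in T cells, *Cd40lg* (5.35), *S1pr1* (5.18), the receptor for the lipid that draws lymphocytes out of lymph nodes, *Tnfsf11* (4.96), *Lef1* (4.95), *Trib2* (4.95), *Tdrp* (4.92), *Ctla4* (4.78), *Trav3-3* (4.65), a variable segment of the receptor alpha chain, *Izumo1r* (4.63), which encodes folate receptor 4, and *Dzip1* (4.52). *Themis* was at 10.25, 10.34 and 10.13 in CD4 cells, against 4.50, 4.92 and 4.95 in CD11c cells (limma adjusted p = 7.7e-13). *S1pr1* was at 9.94, 10.06 and 10.09 in CD4 cells, against 4.92, 4.63 and 5.01 in CD11c cells (limma adjusted p = 1.1e-18).

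Of the 12 genes furthest towards CD11c cells, the largest difference was that of *Slc40a1* (-8.42), the iron exporter ferroportin, at 3.12, 3.37 and 3.03 in CD4 cells, against 11.66, 11.64 and 11.47 in CD11c cells (limma adjusted p = 5.7e-21). *Mrc1* (-7.72), the macrophage mannose receptor, *Fcna* (-7.56), a ficolin, *Slco2b1* (-7.50), an organic anion transporter, *Clec4n* (-7.41), a C-type lectin known as dectin-2, and *Trf* (-7.34), transferrin, were among them. So were the granule and alarmin genes of neutrophils *S100a8* (-8.11), *S100a9* (-7.53), *Ngp* (-7.72), *Camp* (-7.47) and *Lcn2* (-7.13), along with *BC028528* (-7.55). *S100a8* was at 3.43, 3.31 and 3.93 in CD4 cells, against 11.79, 11.62 and 11.59 in CD11c cells. The groups lay far apart for each of these genes, and each CD4 mean was under or near the array medians.

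Antigen receptor signalling was divided between the lineages gene by gene. Of 26 genes of T cell receptor signalling tested, 18 were called higher in CD4 cells and 0 lower, with a median difference of 1.97 against 0.07 over all genes (largest limma adjusted p among the called ones 6.5e-07). *Zap70*, the kinase that binds the phosphorylated CD3 chains, was at 7.87, 7.83 and 7.80 in CD4 cells, against 5.07, 4.59 and 4.67 in CD11c cells. *Lat*, the membrane scaffold that it phosphorylates, was at 10.96, 10.99 and 10.95 in CD4 cells, against 6.60, 7.02 and 6.76 in CD11c cells. Of 17 genes listed for myeloid ITAM signalling, through which Fc receptors and lectins signal, 14 were called higher in CD11c cells and 0 in CD4 cells, with a median of -4.23 (largest limma adjusted p 1.1e-07). The list also holds inhibitory receptors, such as *Sirpa* and *Pirb*, so the count mixes both kinds. *Syk*, the sister kinase of ZAP-70, was at 4.16, 3.14 and 3.12 in CD4 cells, against 8.62, 8.62 and 8.70 in CD11c cells. *Fcer1g*, the common Fc receptor chain that takes the place of CD3 zeta, differed by -5.94, while *Cd247*, CD3 zeta itself, was at 9.14, 9.16 and 9.16 in CD4 cells, against 8.73, 8.69 and 8.48 in CD11c cells, a difference of 0.52 that was not called. With the mean of all its probe sets *Cd247* differed by 2.59 and was called. *Tyrobp* (-5.02), the adaptor DAP12, *Fgr* (-5.61), a Src family kinase, and *Sirpa* (-6.11), the inhibitory receptor for CD47, were also higher in CD11c cells.

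The same division was found in some pairs of related genes and not in others. Of 26 pairs of related genes that were set out, both members were tested in 19, and in 9 of those 1 member was called higher in CD4 cells and the other higher in CD11c cells. In receptor signalling these were *Zap70* (3.05) and *Syk* (-5.18), the phospholipases *Plcg1* (1.78) and *Plcg2* (-5.28), the adaptors *Lat* (4.17) and *Lat2* (-2.86), and the exchange factors *Rasgrp1* (2.05) and *Rasgrp4* (-3.0). Among transcription factors they were *Ets1* (1.96) and *Spi1* (-4.51), *Bcl11b* (4.24) and *Bcl11a* (-4.31), *Batf* (1.79) and *Batf3* (-2.26), and *Id3* (1.84) and *Id2* (-1.61). The remaining pair was of hexokinases, *Hk1* (1.68) and *Hk3* (-4.19). The other 10 pairs tested did not divide so. Among them were *Vav1* (-0.17) and *Vav3* (-0.41), *Lcp2* (0.48) and *Blnk* (-4.23), *Irf4* (0.09) and *Irf8* (-4.43), and *Zeb1* (0.78) and *Zeb2* (-5.85). The pairs were set out with earlier results of these data known, so the count is a description.

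Of the genes that sense microbes and bind antibody, most of those called were higher in CD11c cells. Of 28 Toll-like receptor and cytosolic sensor genes tested, 15 were called higher in CD11c cells and 1, *Nlrc5* (1.02), higher in CD4 cells, while 12 were not called. NLRC5 is best known as the activator of MHC class I genes. *Tlr3*, the receptor for double-stranded RNA, was at 4.48, 4.67 and 4.64 in CD4 cells, against 10.33, 10.50 and 10.62 in CD11c cells (limma adjusted p = 4.3e-18). *Tlr8* (-3.91), *Tlr4* (-3.88), *Cd14* (-3.53), *Tlr7* (-2.84) and *Tlr2* (-2.84) also differed. Of 16 C-type lectin receptor genes 13 were called higher in CD11c cells, led by *Mrc1*, *Clec4n* and *Clec4a2* (-6.25), and of 13 Fc and complement receptor genes 9 were, including *Fcgr1* (-5.48), *Fcgr4* (-5.59) and *Fcgr2b* (-5.60). None of these lectin and Fc receptor genes was called higher in CD4 cells.

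Genes listed for antigen presentation on MHC class II differed between the lineages by up to 86.2-fold, the difference of *Marchf1*. Of 20 genes of this pathway tested, 17 were called higher in CD11c cells and 0 in CD4 cells, with a median difference of -3.67 (largest limma adjusted p 2.3e-07). *H2-Ab1*, the beta chain of I-A, was at 6.12, 5.85 and 6.03 in CD4 cells, against 12.31, 12.23 and 12.18 in CD11c cells. *H2-Eb1*, the beta chain of I-E, was at 5.85, 6.25 and 6.53 in CD4 cells, against 12.19, 12.20 and 12.17 in CD11c cells. *Ciita*, the co-activator on which class II transcription depends, was at 2.51, 2.95 and 2.63 in CD4 cells, against 7.46, 7.72 and 7.76 in CD11c cells (limma adjusted p = 2.3e-17). *Cd74*, the invariant chain, differed by -5.88, *H2-DMb1*, part of the peptide editor H2-M, by -4.90, and *Marchf1*, a ubiquitin ligase that removes class II from the surface, by -6.43. The 3 genes of the list that were not called encode the DNA-binding RFX complex, and are named after their values were seen: *Rfx5* (-0.37), *Rfxap* (0.18) and *Rfxank* (0.45). MHC class I genes did not divide in this way: of 14 tested, 1 was called (*Nlrc5*), and the median difference was 0.00.

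The promoters of the class II genes are shown because these genes moved together and share a promoter layout, in which a CCAAT box, read ATTGG on the coding strand, lies shortly before the start. The sequences are RefSeq promoters of build GRCm38.p6, 75 bases each, written 5′ to 3′ on the strand of the gene, with ATTGG in capitals.
H2-Aa (chr17:34287842-34287916, minus strand): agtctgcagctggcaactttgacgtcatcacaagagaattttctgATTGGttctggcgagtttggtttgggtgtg
H2-Eb1 (chr17:34305763-34305837, plus strand): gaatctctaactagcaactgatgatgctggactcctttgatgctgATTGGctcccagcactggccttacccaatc
H2-Eb2 (chr17:34325530-34325604, plus strand): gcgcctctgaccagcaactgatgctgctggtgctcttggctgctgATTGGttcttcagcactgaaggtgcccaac
H2-DMb1 (chr17:34153085-34153159, plus strand): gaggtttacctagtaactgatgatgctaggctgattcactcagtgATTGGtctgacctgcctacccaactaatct
H2-DMb2 (chr17:34145114-34145188, plus strand): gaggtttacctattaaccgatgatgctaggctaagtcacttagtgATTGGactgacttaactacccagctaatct
H2-Oa (chr17:34092291-34092365, plus strand): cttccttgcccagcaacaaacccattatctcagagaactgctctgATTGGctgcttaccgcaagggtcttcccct
H2-Ob (chr17:34238803-34238877, plus strand): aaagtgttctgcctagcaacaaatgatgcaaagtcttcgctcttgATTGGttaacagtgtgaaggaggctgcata

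Counted in bases from the annotated start, the motif begins at -48 in *H2-Aa*, -59 in *H2-Eb1*, -100 in *H2-Eb2*, -61 in *H2-DMb1*, -90 in *H2-DMb2*, -43 in *H2-Oa* and -57 in *H2-Ob*. It was found between -120 and -30, on the strand of the gene, in 7 of 8 H2 genes of the class II list that have a RefSeq promoter, and in 8 of the 13 called list members that have one. Of 8796 tested genes with a promoter, 12.3% held it in that window, and 38.8% held it anywhere on either strand of the 300 bases, which run from 250 before to 50 after the start. The window was chosen after the sequences had been seen, and a match is a description of the letters only. The 7 genes shown varied among themselves: *H2-Eb1* differed by -5.98, *H2-DMb1* by -4.90, *H2-DMb2* by -4.50, *H2-Aa* by -3.65, *H2-Ob* by -2.31, *H2-Oa* by -1.80 and *H2-Eb2* by -1.75.

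Of 98 ligand and receptor pairs that were set out, both genes were tested in 59. In 14 the ligand was called higher in CD11c cells and its receptor in CD4 cells, and in 5 the ligand was higher in CD4 cells and the receptor in CD11c cells. Both genes were higher in CD4 cells in 3 pairs and in CD11c cells in 6, only 1 gene was called in 25, and neither in 6. Pairs share genes, so they are not independent. Counted once each, 53 ligands were tested, of which 10 were higher in CD4 cells and 25 in CD11c cells. Of 71 receptors tested, 21 were higher in CD4 cells and 29 in CD11c cells. The largest limma adjusted p among all called genes of the pairs was 0.00022.

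**Figure D2:**
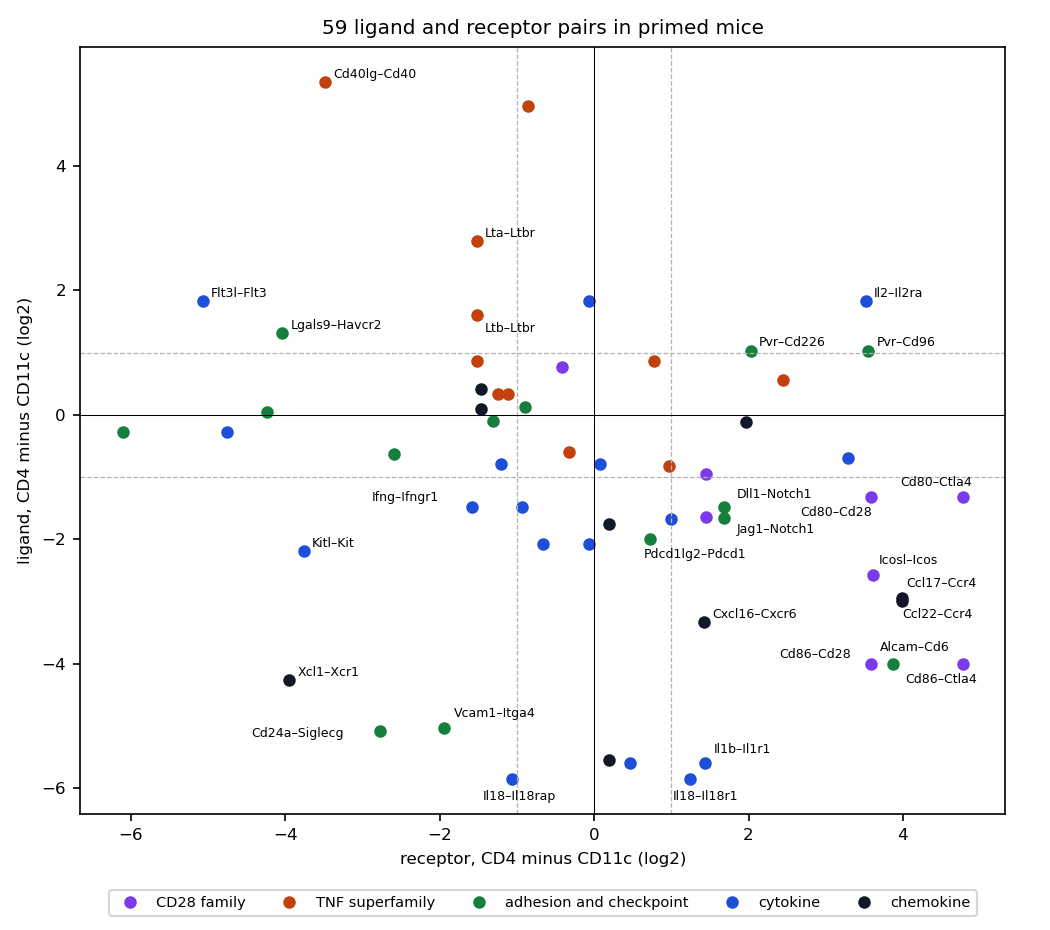
Difference between CD4 and CD11c cells (log2, CD4 minus CD11c) of the receptor (horizontal axis) and of its ligand (vertical axis) for the 59 pairs with both genes tested, coloured by family. Dashed lines mark a 2-fold difference, and names mark pairs in which both genes were called: 14 lie at the lower right (ligand in CD11c cells, receptor in CD4 cells) and 5 at the upper left.

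In the CD28 family the ligand was higher in CD11c cells and the receptor in CD4 cells in 6 of 8 pairs. *Cd28*, the co-stimulatory receptor, was at 10.24, 10.06 and 10.18 in CD4 cells, against 6.57, 6.62 and 6.51 in CD11c cells (limma adjusted p = 2.3e-17). *Ctla4*, the inhibitory receptor for the same ligands, was at 9.24, 8.50 and 9.17 in CD4 cells, against 3.98, 4.16 and 4.41 in CD11c cells. Neither group overlapped the other for either receptor, as for 71.2% of all genes tested. *Cd86* was at 5.54, 5.42 and 5.08 in CD4 cells, against 9.28, 9.32 and 9.48 in CD11c cells, a 16.1-fold difference (limma adjusted p = 7e-16). *Cd80* was at 5.15, 4.82 and 4.88 in CD4 cells, against 6.70, 6.04 and 6.08 in CD11c cells, a 2.5-fold difference (limma adjusted p = 3.5e-06). The ligand pair of CD28 and CTLA-4 thus differed far more in *Cd86* than in *Cd80*. *Icos*, a further co-stimulatory receptor, was at 11.60, 11.51 and 11.40 in CD4 cells, against 7.82, 7.93 and 7.93 in CD11c cells, and its ligand *Icosl* differed by -2.57. *Pdcd1*, the receptor PD-1, was at 4.76, 5.23 and 5.24 in CD4 cells, against 3.52, 3.64 and 3.72 in CD11c cells. Its ligand *Pdcd1lg2* differed by -1.64 and was called, while *Cd274*, which encodes PD-L1, differed by -0.95 and fell short of 2-fold.

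In the TNF superfamily the called ligands lay in CD4 cells. Of 11 ligands tested, 6 were called higher in CD4 cells and 0 in CD11c cells. *Cd40lg*, the helper signal to antigen presenting cells, was at 8.54, 8.60 and 8.35 in CD4 cells, against 3.20, 3.48 and 2.76 in CD11c cells (limma adjusted p = 8.3e-15). Its receptor *Cd40* was at 6.06, 5.78 and 6.29 in CD4 cells, against 9.46, 9.32 and 9.81 in CD11c cells, a difference of -3.49. Of the 5 pairs with the ligand in CD4 cells, this one had the largest ligand difference. *Tnfsf11*, which encodes RANKL, was at 8.54, 7.89 and 8.56 in CD4 cells, against 2.94, 3.56 and 3.62 in CD11c cells, while its receptor *Tnfrsf11a* differed by -0.86 and was not called. *Tnfsf8* (3.10), the ligand of CD30, *Lta* (2.79) and *Ltb* (1.60), the lymphotoxins, and *Tnfsf10* (1.96), which encodes TRAIL, were also higher in CD4 cells, and the lymphotoxin receptor *Ltbr* (-1.52) was higher in CD11c cells. *Tnf* did not pass the test of size, at 0.33, and its receptors *Tnfrsf1a* (-1.24) and *Tnfrsf1b* (-1.12) were higher in CD11c cells. Of 13 receptors of the family tested, 3 were called higher in CD4 cells, 4 in CD11c cells and 6 in neither. The 3 were the co-stimulatory receptors *Cd27* (3.44), *Tnfrsf4* (2.45), which encodes OX40, and *Tnfrsf18* (1.89), which encodes GITR. *Tnfrsf9*, the co-stimulatory receptor 4-1BB, differed by -0.24 and *Tnfrsf14* by 0.77, and neither was called.

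Among adhesion and checkpoint pairs both directions were found. *Cd6*, a receptor on T cells, was at 8.14, 7.74 and 8.35 in CD4 cells, against 4.22, 4.47 and 3.92 in CD11c cells. Its ligand *Alcam* was at 4.71, 4.18 and 4.40 in CD4 cells, against 8.41, 8.44 and 8.46 in CD11c cells. *Notch1* (1.68) was higher in CD4 cells, and its ligands *Dll1* (-1.48) and *Jag1* (-1.66) in CD11c cells. *Lgals9* (1.31), galectin-9, was higher in CD4 cells, while *Havcr2* (-4.04), the checkpoint receptor TIM-3, was higher in CD11c cells, at 5.46, 5.18 and 5.70 in CD4 cells, against 9.41, 9.48 and 9.56 in CD11c cells. The poliovirus receptor gene *Pvr* (1.03) and both of its receptors that were tested, *Cd226* (2.03) and *Cd96* (3.55), were higher in CD4 cells. *Cd47* did not divide the lineages (-0.27), and its receptor *Sirpa* did (-6.11). *Icam1* (-1.99) was higher in CD11c cells, and *Itgal* (0.72), which encodes a chain of its receptor LFA-1, did not reach 2-fold.

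Cytokine genes lay mostly in CD11c cells and their receptors in both. Of 11 cytokines tested, 6 were called higher in CD11c cells and 2, *Il2* and *Flt3l*, in CD4 cells. *Il2*, the T cell growth factor, was at 5.72, 5.52 and 4.87 in CD4 cells, against 3.54, 3.64 and 3.46 in CD11c cells. Its high-affinity receptor chain *Il2ra* was at 9.33, 8.69 and 9.38 in CD4 cells, against 5.31, 5.65 and 5.87 in CD11c cells, so ligand and receptor were in the same preparation. *Flt3l* (1.83), the growth factor of dendritic cells, was higher in CD4 cells and its receptor *Flt3* (-5.07) in CD11c cells. *Il18* was at 2.93, 3.10 and 3.52 in CD4 cells, against 9.16, 9.10 and 8.86 in CD11c cells, and *Il1b* was at 3.86, 3.19 and 3.46 in CD4 cells, against 8.95, 9.03 and 9.32 in CD11c cells. Their receptor chains *Il18r1* (1.24) and *Il1r1* (1.44) were higher in CD4 cells, and *Il18rap* (-1.06) in CD11c cells. Of 28 cytokine receptor genes 6 were called higher in CD4 cells, such as *Il27ra* (3.29) and *Il21r* (1.47), 11 in CD11c cells, such as *Il10ra* (-3.38), *Il13ra1* (-3.68) and *Csf1r* (-4.75), and 11 in neither. *Ifng*, the gene of interferon gamma, was at 4.94, 3.86 and 3.86 in CD4 cells, against 5.81, 5.63 and 5.70 in CD11c cells (difference -1.49, limma adjusted p = 0.00012). The natural killer markers *Gzma* (-3.91), *Klrk1* (-3.42) and *Ncr1* (-2.73) were higher in the same arrays, and their part in the *Ifng* difference was not tested. The genes of IL-4, IL-6, IL-10, IL-13, IL-17A and IL-21 did not pass the filter on low values.

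Chemokines lay in CD11c cells: of 12 tested, 9 were called higher there and 0 in CD4 cells. *Ccr4*, a homing receptor of activated T cells, was at 8.02, 7.75 and 7.72 in CD4 cells, against 4.0, 3.75 and 3.77 in CD11c cells. Its ligand *Ccl17* was at 5.59, 5.71 and 5.35 in CD4 cells, against 8.26, 8.21 and 9.0 in CD11c cells, and *Ccl22* at 6.72, 6.95 and 6.30 in CD4 cells, against 9.31, 9.53 and 10.12 in CD11c cells. For all 3 genes the groups did not overlap, as for 71.2% of all genes tested. *Cxcr6* (1.42) and its ligand *Cxcl16* (-3.33) divided likewise. *Cxcr5* (1.97), the receptor that leads to B cell follicles, was higher in CD4 cells. *Cxcr3* (0.19) was not called, while its ligands *Cxcl9* (-5.55) and *Cxcl10* (-1.75) were higher in CD11c cells. *Xcl1* and its receptor *Xcr1* (-3.95), a mark of cross-presenting dendritic cells, were both higher in CD11c cells, with *Xcl1* at 4.64, 4.36 and 4.23 in CD4 cells, against 8.58, 8.67 and 8.76 in CD11c cells. *Xcl1* is known as a product of natural killer and T cells. Among adhesion and egress genes 7 of 25 were called higher in CD4 cells, led by *S1pr1*, *Cd69* (3.11) and *Itga6* (3.09), and 10 in CD11c cells, including *Vcam1* (-5.03) and *Itgb5* (-3.89).

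Transcription factor genes gave each preparation a separate set. Of 24 T lineage factors tested, 11 were called higher in CD4 cells and 0 in CD11c cells, with a median of 0.97 (largest limma adjusted p among the called ones 5.1e-07). *Lef1*, a partner of beta-catenin that marks naive and early T cells, was at 8.79, 8.61 and 8.70 in CD4 cells, against 3.99, 3.78 and 3.48 in CD11c cells. *Bcl11b*, which fixes T cell fate, was at 11.39, 11.41 and 11.41 in CD4 cells, against 6.72, 7.56 and 7.22 in CD11c cells. *Gata3* was at 7.07, 7.10 and 7.28 in CD4 cells, against 3.73, 3.67 and 3.93 in CD11c cells. The remaining named members were *Satb1* (2.24), a chromatin organiser, *Myb* (2.10) and *Ets1* (1.96).

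The factors of helper T cell subsets were mixed: of 18 tested, 7 were higher in CD4 cells and 3 in CD11c cells. Over all genes tested the shares were 6.38% and 14.8%, so the share towards CD11c cells lay near that of all genes. *Foxp3*, the factor of regulatory T cells, was at 9.71, 7.84 and 9.51 in CD4 cells, against 6.25, 6.55 and 6.53 in CD11c cells (difference 2.57, limma adjusted p = 5.2e-08). *Ikzf2*, which encodes Helios, was at 8.72, 7.89 and 8.94 in CD4 cells, against 5.54, 5.67 and 5.33 in CD11c cells. For both genes the second CD4 array was the lowest of the 3. *Pou2af1* (3.44), *Ikzf4* (1.82), *Batf* (1.79) and *Rora* (1.77) were further higher ones, and *Stat4* differed by 1.26. The 3 that were higher in CD11c cells were *Eomes* (-1.72), *Tbx21* (-1.44), which encodes T-bet, and *Maf* (-1.41). *Tbx21* was at 6.10, 6.10 and 5.70 in CD4 cells, against 7.33, 7.39 and 7.50 in CD11c cells. T-bet and Eomes are also factors of natural killer cells. Of 16 factors induced by receptor signals, 1 was called higher in CD4 cells (*Ier2*, 1.02) and 2 in CD11c cells (*Atf3*, -2.46, and *Relb*, -1.01). These shares lie near those over all genes tested, 6.38% and 14.8%.

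Of 33 dendritic and myeloid factors tested, 27 were called higher in CD11c cells and 0 in CD4 cells, with a median of -2.88 (largest limma adjusted p 1.7e-06). *Irf8*, required for cross-presenting dendritic cells, was at 6.25, 6.23 and 6.23 in CD4 cells, against 10.73, 10.71 and 10.53 in CD11c cells. *Spi1*, which encodes PU.1, was at 3.14, 2.92 and 3.16 in CD4 cells, against 7.48, 7.54 and 7.74 in CD11c cells. The largest difference was that of *Spic*, the factor of red pulp macrophages, at 2.68, 2.54 and 2.86 in CD4 cells, against 9.67, 9.59 and 9.42 in CD11c cells (limma adjusted p = 2e-18). *Lmo2* (-5.88), *Zeb2* (-5.85), *Hhex* (-5.76), *Pparg* (-5.41), the lipid-sensing receptor of macrophages, and *Tcf4* (-5.22), the factor of plasmacytoid dendritic cells, followed. Factors of several myeloid cell types were thus higher in the same arrays. Of 17 interferon factors and targets, *Ifit2* (1.22) was called higher in CD4 cells, and *Rsad2* (-4.13), *Mx1* (-2.42) and *Stat2* (-1.04) higher in CD11c cells. These shares too lie near the 6.38% and 14.8% of all genes tested.

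**Figure D3:**
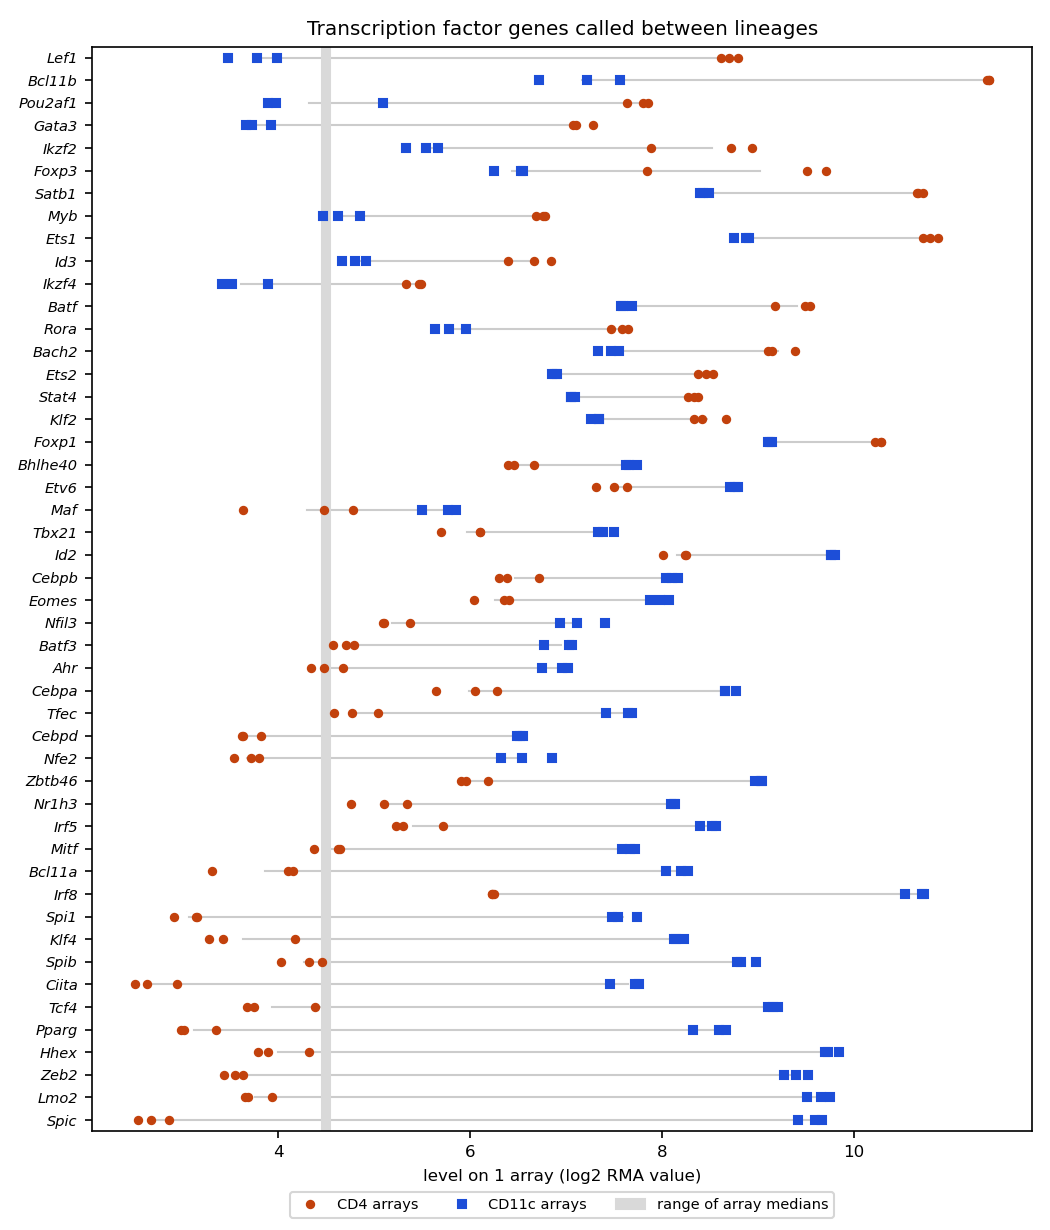
Log2 RMA value of each called gene of the T lineage, helper subset and dendritic and myeloid factor lists on the 3 CD4 arrays (circles) and 3 CD11c arrays (squares), ordered by difference, with lines joining the group means and the array medians in grey. *Lef1* is at the top with CD4 arrays at 8.61 to 8.79 and *Spic* at the bottom with CD11c arrays at 9.42 to 9.67.

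In energy metabolism no gene of the respiratory chain reached 2-fold, and single enzymes of glucose and citrate use did. None of 45 respiratory chain genes was called: 9 passed the adjusted p alone towards CD4 cells and 7 towards CD11c cells, and the median difference was 0.02. Of 23 glycolysis and glucose transport genes, 2 were called higher in CD4 cells and 8 in CD11c cells, with a median of 0.08. The 2 were *Hk1*, at 8.23, 8.05 and 8.18 in CD4 cells, against 6.46, 6.60 and 6.36 in CD11c cells, and *Ldhb* (1.32), a lactate dehydrogenase chain. Other hexokinases ran the opposite way: *Hk3* was at 3.59, 4.51 and 3.67 in CD4 cells, against 8.26, 8.07 and 8.01 in CD11c cells, and *Hk2* was at 6.16, 5.85 and 5.83 in CD4 cells, against 7.72, 7.90 and 7.86 in CD11c cells. *Eno3* (-2.16), *Pfkfb4* (-1.72), *Slc16a3* (-1.39), a lactate exporter, and *Pfkfb3* (-1.38) were also higher in CD11c cells. Around the TCA cycle, *Pdk1* (1.54), a kinase that restrains pyruvate dehydrogenase, and *Pdha1* (1.26), a subunit of that enzyme, were higher in CD4 cells, and the isocitrate dehydrogenases *Idh1* and *Idh2* (-1.63) and the aconitase *Aco1* (-1.16) in CD11c cells. *Idh1* was at 4.85, 5.32 and 5.30 in CD4 cells, against 9.02, 9.03 and 9.24 in CD11c cells (limma adjusted p = 7e-14). The remaining 23 of 28 genes of the TCA cycle list were not called, among them the isocitrate dehydrogenase genes *Idh3a*, *Idh3b* and *Idh3g*. Over all genes tested, 6.38% were called higher in CD4 cells and 14.8% in CD11c cells.

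Lipid, iron and lysosomal genes that were called were, with 1 exception among the lysosomal ones, higher in CD11c cells. Over all genes tested, 14.8% were called higher in CD11c cells and 6.38% in CD4 cells. Of 19 genes of fatty acid oxidation 2, a share below that, were called higher in CD11c cells, *Acox3* (-1.59) and *Eci1* (-1.14), with a median of -0.21. Of 20 genes of fatty acid synthesis and lipid handling, 7 were called there and 0 in CD4 cells, led by *Lpl*, lipoprotein lipase, at 2.91, 3.91 and 2.59 in CD4 cells, against 10.04, 10.31 and 9.89 in CD11c cells, and by *Cd36* (-4.40) and *Fabp4* (-4.21). Of 16 genes of cholesterol synthesis 0 were called by limma, while 2 towards CD4 cells and 3 towards CD11c cells passed the adjusted p alone. Of 12 genes of cholesterol efflux and oxysterols 8 were called higher in CD11c cells, including *Cyp27a1* (-4.42) and *Apoe* (-3.71). Iron and haem genes were called in 10 of 16, and *Hmox1*, which degrades haem, was at 4.68, 4.45 and 4.09 in CD4 cells, against 10.76, 10.84 and 10.65 in CD11c cells. *Hfe* (-5.92) and *Slc11a1* (-5.43), an iron transporter of phagosomes, were also in this group. Of 12 eicosanoid genes 8 were called, with *Hpgd* (-6.89), which inactivates prostaglandins, and *Alox5ap* (-6.56), needed for leukotrienes, furthest. Of 24 redox genes 8 were called, including *Cybb* (-6.63), the catalytic subunit of the phagocyte oxidase. Of 32 lysosomal genes 22 were called higher in CD11c cells, such as *Ctsh* (-5.96), and 1, *Ctse* (1.08), in CD4 cells. The red pulp macrophage list, which itself includes *Slc40a1* and *Hmox1*, had a median difference of -6.87 between the same arrays, and its part in these counts was not tested.

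Synthesis of building blocks pointed towards CD4 cells, with small differences. Of 29 genes of serine, folate and nucleotide synthesis, 20 passed the adjusted p towards CD4 cells and 3 towards CD11c cells, and at 2-fold 4 and 2 were called. The 4 were *Phgdh*, the first enzyme of serine synthesis, at 6.77, 6.72 and 6.87 in CD4 cells, against 5.23, 5.19 and 5.20 in CD11c cells, *Psat1* (1.22), *Ctps2* (1.24) and *Mthfd1l* (1.03). The 2 were the purine salvage enzymes *Ada* (-1.14) and *Pnp* (-1.14). The list's median was 0.65 against 0.07 over all genes tested. Of all 10838 genes tested, 3696 passed the adjusted p towards CD4 cells and 3158 towards CD11c cells, together 63.2%. At 2-fold the shares over all genes were 6.38% and 14.8%. Cell cycle genes had a like median of 0.66, with 20 of 28 passing towards CD4 cells at the adjusted p alone. At 2-fold 1 of them was called, *Ccne1* (1.02), a share below the 6.38% of all genes. Of 25 genes of amino acid transport and use, *Bcat1* (3.17), a transaminase of branched-chain amino acids, and *Ass1* (1.30) were higher in CD4 cells and 9 were higher in CD11c cells. Among these were the enzymes of kynurenine metabolism *Kmo*, at 4.53, 4.86 and 4.01 in CD4 cells, against 9.46, 9.54 and 9.53 in CD11c cells, and *Kynu* (-3.69), and the secreted amino acid oxidase *Il4i1* (-3.59). Genes of vitamin A and adenosine use included *Entpd1* (-3.80), which encodes CD39, and *Aldh1a2* (-3.65), which makes retinoic acid, both higher in CD11c cells.

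**Figure D4:**
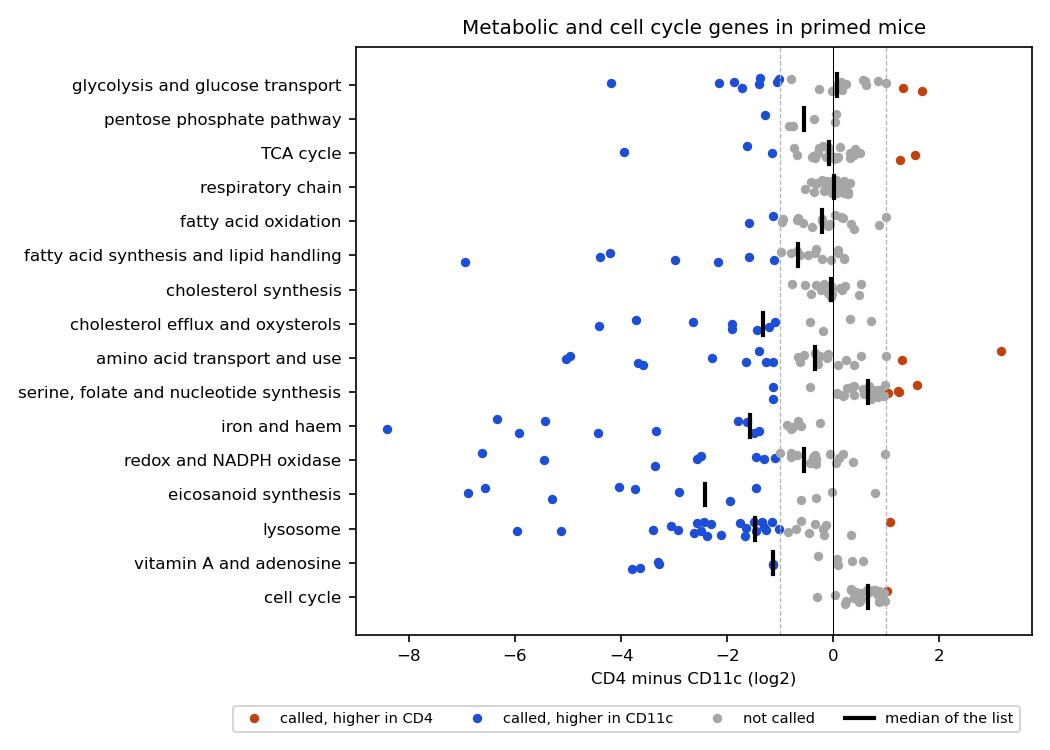
Difference between CD4 and CD11c cells (log2, CD4 minus CD11c) of each tested gene of the metabolic lists and of the cell cycle list, in orange where called higher in CD4 cells, blue where called higher in CD11c cells and grey where not called, with the list median as a bar. The 45 respiratory chain genes lie close to 0, and iron, eicosanoid and lysosomal genes extend to the left, to -8.42 for *Slc40a1*.

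Promoters of the genes that differed most had a base composition of their own, in both directions alike. The 56 promoters of genes at least 8-fold higher in CD4 cells and the 381 of genes at least 8-fold higher in CD11c cells had a median G+C content of 55% each and a median of 8 CpG pairs in 300 bases. Promoters of 6991 genes that were not called had 60.7% and 21 CpG pairs. TATAAA was found on either strand in 17.9% of the CD4 promoters, 12.6% of the CD11c promoters and 7.05% of those not called. CCGGAAG, a form of the ETS site common in CpG-rich promoters, was in 0, 4.46 and 21.3% of them. Each gene contributed its first listed RefSeq promoter. These are descriptions of letters without a test.

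The other set of primed mice gave most of the same calls. With control IgG 689 genes (6.36%) were called higher in CD4 cells and 1752 (16.2%) in CD11c cells, or 1029 and 1502 after a further quantile normalization. Of the 2294 genes called in primed mice 2290 had the same sign with control IgG and 2068 (90.1%) were called the same way, which is 84.7% of the 2441 genes called with control IgG. The cells in the arrays were not all alike: CD11c arrays with control IgG read the 2 salivary gland markers tested at 5.52 to 11.47, where CD11c arrays of primed mice read 2.60 to 2.76. They read the neutrophil list at 7.24 to 7.99, where those of primed mice read 8.80 to 9.01. The part of these cells in the comparison was not tested. For 3 genes the calls were opposite, all on the Y chromosome (*Ssty1*, *Ssty2* and *Orly*, named after their values were seen). The difference between the lineage differences was called for 6 genes towards CD4 cells of primed mice (0.0554%) and 9 away from them (0.083%), and the count of 9 fell to 1 without CD4 replicate 1 given control IgG or without CD4 replicate 3 of primed mice. The 3 largest were again Y-linked, with *Eif2s3y* at a mean of 8.62 in CD4 cells and 8.58 in CD11c cells of primed mice, and at 2.51 in CD4 cells and 7.63 in CD11c cells with control IgG. *Ccl5* differed by -2.80 in primed mice and by -4.75 with control IgG, and *Inhba*, a chain of activin, by -3.54 and -1.10. No gene of the CD28 or TNF families, no metabolic gene of the lists and 1 transcription factor of the lists, *Jun* (0.65 and -0.48), was among the 15.

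**Figure D5:**
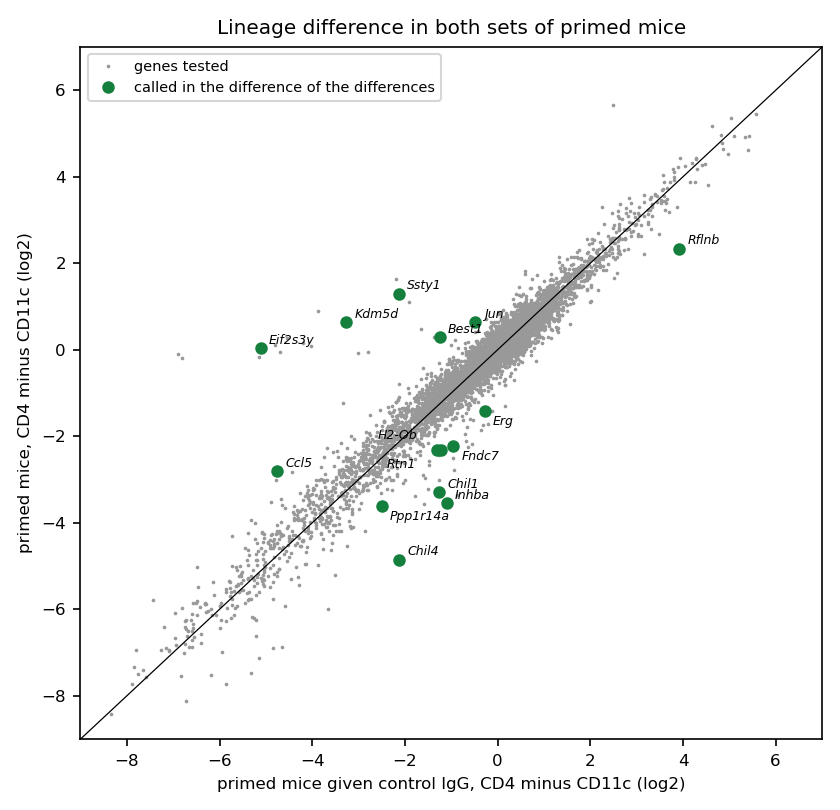
Difference between CD4 and CD11c cells (log2, CD4 minus CD11c) for each of 10838 genes tested in primed mice (vertical axis) and in primed mice given control IgG (horizontal axis), with the line of equal values. The 15 genes called in the difference of the differences are named, and *Eif2s3y* lies at 0.04 in primed mice and -5.11 with control IgG.

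Set against unimmunised mice, the lineage difference was higher in primed mice for 336 genes (3.1%) and lower for 1359 (12.5%), or for 630 and 1111 after a further quantile normalization. *Ctla4* differed by 4.78 between CD4 and CD11c cells in primed mice and by -0.11 in unimmunised mice, *Tnfsf11* by 4.96 and 0.44, *Icos* by 3.61 and -0.08, *Ccr4* by 3.99 and 0.51, and *Tnfrsf4* by 2.45 and 0.03. *Cd28* (3.59 and 3.08), *Cd27* (3.44 and 3.10), *Lef1* (4.95 and 4.29) and *Bcl11b* (4.24 and 3.90) were not called in this test. Of 18 helper subset factors 8 were called higher and 2 lower, with *Foxp3* at 2.57 in primed and 0.29 in unimmunised mice. The T cell list was at 9.97 to 10.11 on CD4 arrays of primed mice and at 8.74 to 8.84 on those of unimmunised mice. Of its 14 markers 4 were called higher in this test and 0 lower. The part of T cell content in the higher differences was not tested. The CD4 arrays of unimmunised mice, which came from nodes and spleen, read the neutrophil list at 9.37 to 9.68 and the red pulp macrophage list at 8.56 to 8.86, where the CD4 arrays of primed mice read 3.48 to 3.83 and 3.18 to 3.45. On the CD11c arrays of unimmunised mice the neutrophil list was at 6.08 to 7.07 and the red pulp list at 10.93 to 11.03. Beside this, all 11 neutrophil and 9 red pulp macrophage markers, 13 of 20 class II genes and 22 of 33 dendritic and myeloid factors were called towards a lower difference in primed mice. The part of these cells in those counts was not tested.

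Set against tolerised mice, fewer genes were called: 184 (1.7%) higher and 302 (2.79%) lower in primed mice. With no minimum difference the counts were 680 higher and 535 lower, and against a 2-fold difference they were 2 and 17. *Cd40lg* differed by 5.35 in primed and by 2.97 in tolerised mice, *Ccr4* by 3.99 and 2.01, *Il2ra* by 3.52 and 2.37, and *Gata3* by 3.37 and 2.04, each called higher. *Cxcr5* differed by 1.97 in primed and by 4.16 in tolerised mice and was called lower. *Ctla4* (4.78 and 5.50), *Icos* (3.61 and 2.95), *Tnfsf11* (4.96 and 4.94) and *Foxp3* (2.57 and 2.36) were not called. Of 28 cell cycle genes 15 were called higher in the difference of primed mice and 0 lower, with a median of 1.14, against 0 higher and 22 lower beside unimmunised mice, with a median of -1.41. The CD4 arrays of unimmunised mice read the erythroid list at 9.11 to 9.50, and those of primed mice at 4.01 to 4.54. They also read the neutrophil and macrophage lists higher, as given above. The part of these cells in the cell cycle counts was not tested. The neutrophil list stood at 4.15 to 5.28 on CD4 arrays of tolerised mice, above its range in primed mice. The red pulp macrophage list stood at 3.91 to 5.38 there and at 3.18 to 3.45 on CD4 arrays of primed mice. Called lower were 8 of 9 red pulp macrophage markers, 2 of 11 neutrophil markers and 10 of 33 dendritic and myeloid factors. Of all genes tested, 2.79% were called lower. The part of these cells in those counts was not tested.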

How the data were processed

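Biotin-labelled copies of amplified total RNA were read on 1-colour arrays, per the labels. The deposited values are on a log2 scale, with 1 for each probe set on each array, and were made by the authors with RMA, per the submitters' processing notes. The RMA software version was not given in the sources. RMA sets all arrays to nearly 1 distribution, so a shift of most genes in 1 lineage would not be seen. Values ran from 1.667 to 13.242, and precision is limited by how many arrays there are.

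Among 45118 probe sets, 28898 had 1 gene symbol, 551 several and 15669 none in the platform annotation, and those with 1 were used. Each of 17097 genes was read from the probe set whose mean over 30 arrays was highest. Of 825 called genes with another probe set above the median on at least 3 of 6 arrays, 3 had one that differed at least 2-fold the opposite way (*Ms4a6c*, *Plpp2* and *Tiam1*). Levels of different genes are not comparable on these arrays. The 10838 genes that exceeded the median of the array on 3 or more of 30 arrays were fitted in R 4.3.3 with lmFit and eBayes of limma 3.58.1 (10 group means, 20 residual degrees of freedom, two-sided, Benjamini-Hochberg adjustment over all genes tested). A gene was called at an adjusted p under 0.05 and a log2 difference of at least 1, and interactions likewise. The fit was tested on simulated data. Figures were drawn with matplotlib 3.10.9.

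The lists held 994 symbols with those of the pairs, of which 881 matched a gene here, some through RefSeq synonyms. Genes of the lists that did not match, among them *Ccr7*, *Lck* and *Tcf7*, were not analysed here. Named were the 12 largest called differences in each direction, up to 6 called members of each list, members called against their list, the genes of the pairs, and the 6 largest of each interaction. Other names are examples chosen after their values were seen. Members, lists and pairs were chosen with earlier results of these data known, so their counts are descriptions. Promoters were RefSeq's (GRCm38.p6).

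Replicate numbers were checked for pairing: deviations of same-numbered CD4 and CD11c arrays correlated at -0.026, -0.018 and 0.038 in primed mice, so the numbers were not used as a block. Alternatives were the arrays in the fit, the filter, a further quantile normalization, array weights, the block, the mean of all probe sets, each array left out, a test against a 2-fold difference (limma treat) and no minimum difference.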

Additional observations from a re-analysis of the deposited data

Results flagged for a closer look

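Each result here is a gene whose lineage difference (CD4 minus CD11c, log2) in primed mice differed from that of another group of mice in limma's interaction test. Groups of 3 arrays were not examined for single outlying arrays.

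Beside unimmunised mice, the 6 largest positive differences of the lineage difference were those of *Xist* (5.85), *Ctla4* (4.89), *Tnfsf11* (4.51), *1500009L16Rik* (4.37), *Icos* (3.69) and *Capn3* (3.53). In unimmunised mice *Xist* was at 11.23 in CD4 cells and 11.43 in CD11c cells, and *Eif2s3y* at 2.56 and 2.59. Both preparations of unimmunised mice thus carried mainly the female transcript, unlike those of primed mice. The part of sex was not tested. *Ctla4* had a mean of 8.97 in CD4 cells and 4.18 in CD11c cells of primed mice, and of 3.55 in CD4 cells and 3.66 in CD11c cells of unimmunised mice. The T cell list was at 9.97 to 10.11 on CD4 arrays of primed mice and at 8.74 to 8.84 on those of unimmunised mice. The part of T cell content was not tested. The 6 largest negative ones were all genes of granulocytes or of myeloid secretion, *Lcn2* (-11.05), *Ngp* (-11.03), *Chil3* (-11.02), *Camp* (-10.75), *S100a8* (-10.42) and *Ltf* (-10.34). *Lcn2* was at 2.77 in CD4 cells and 9.90 in CD11c cells of primed mice, and at 9.24 in CD4 cells and 5.32 in CD11c cells of unimmunised mice, so the lineage difference changed sign. The CD4 arrays of unimmunised mice read the neutrophil list, which includes *Lcn2*, at 9.37 to 9.68, and those of primed mice at 3.48 to 3.83. The part of these cells in the change was not tested.

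Beside tolerised mice, the largest positive values were those of *Xist* (10.59), *1500009L16Rik* (2.44), *Cd40lg* (2.38), *Ly6i* (2.20), *Ifitm1* (2.17) and *Gbp2* (2.10). *Ly6i* was at 3.17 in both lineages of primed mice, and at 3.30 in CD4 cells and 5.50 in CD11c cells of tolerised mice. Its mean was under the array medians in every group but the last. It thus passed the filter through the group where it was high, and its call is a description. The largest negative values were those of *Eif2s3y* (-6.24), *Mcpt1* (-4.53), *Tgm2* (-4.33), *Kdm5d* (-4.08), *Hic1* (-3.84) and *S100a9* (-3.68). *Mcpt1*, a mast cell protease, was at 2.05 in CD4 cells and 2.08 in CD11c cells of primed mice, and at 6.66 in CD4 cells and 2.15 in CD11c cells of tolerised mice. It exceeded the array median on no array of primed mice, so it passed the filter through other groups and its call is likewise a description. *Hic1*, a transcription factor gene, was at 3.84 in CD4 cells and 4.91 in CD11c cells of primed mice, and at 7.82 in CD4 cells and 5.05 in CD11c cells of tolerised mice. The CD4 cells of tolerised mice came from mesenteric nodes, and the part of the tissue was not tested. In tolerised mice *Xist* was at 6.17 in CD4 cells and 11.11 in CD11c cells, and *Eif2s3y* at 8.89 and 2.62. The sex of the cells thus differed between the groups compared, and its part was not tested.

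Beside primed mice given control IgG, all 15 called genes are given. Positive were *Eif2s3y* (5.15), *Kdm5d* (3.91), *Ssty1* (3.43), *Ccl5* (1.96), *Best1* (1.54) and *Jun* (1.13). Negative were *Chil4* (-2.72), *Inhba* (-2.45), *Chil1* (-2.03), *Rflnb* (-1.59), *Fndc7* (-1.26), *Erg* (-1.13), *Ppp1r14a* (-1.10), *H2-Ob* (-1.07) and *Rtn1* (-1.0). Several of these calls were lost in other fits: of 12 fits that each left out 1 array, *Chil4*, *Chil1* and *Rflnb* lost the call in 11 each, *Inhba* in 7 and *Erg* in 4, and the first 3 also lost it with no filter and with a further quantile normalization. The limma adjusted p of *Chil4* was 0.047 and that of *Ccl5* 0.0018. *Eif2s3y*, *Kdm5d* and *Ssty1* lie on the Y chromosome.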

How the results depend on the processing

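In primed mice 2294 genes were called, and 2277 to 2308 with each array left out; with no minimum difference the count was 6854, and against a 2-fold difference (limma treat) 1536. With control IgG the 2441 calls became 1623 with treat and 7116 with no minimum (2403 to 2450 with arrays left out). The 1695 calls beside unimmunised mice became 751 and 4544 (1654 to 1766), the 486 beside tolerised mice 19 and 1215 (409 to 595), and the 15 beside control IgG 2 with treat, 55 with array weights, 9 with the mean of all probe sets and 39 with only the groups compared (7 to 15). The cause was not tested. A further quantile normalization moved the median of all genes by 0.15, to 0.23. Same-numbered arrays share only a number, and a replicate block gave 2294 calls in primed mice, 2441 with control IgG, and 1685, 443 and 15 in the interactions. The mean of all probe sets took *Idh2* (-0.82), *Aco1* (-0.62), *Ctps2* (0.83), *Ass1* (0.93), *Jag1* (-0.98), *Pvr* (0.97), *Tnfrsf1b* (-0.83), *Bid* (-0.82), *Il18rap* (-0.98) and *Stat2* (-0.98) under 2-fold, and quantile normalization did so for *Il18rap* (-0.89), *Relb* (-0.81), *Stat2* (-0.92), *Ada* (-0.99), *Bid* (-0.86) and *Hic1* (-0.85). With 1 array left out, *Nlrc5*, *Ier2*, *Ccne1*, *Mthfd1l*, *Pvr*, *Relb*, *Il18rap*, *Stat2*, *Bid*, *Hic1*, *Tnfrsf1b*, *Orly* and *Ssty2* each lost the call in at least 1 fit. Of 274 values of named genes, 206 kept their direction and their side of the threshold under every alternative run. Signs turned only for genes near 0: *Eif2s3y* at -0.00 with array weights, -0.14 with the mean of all probe sets and -0.06 to 0.10 with 1 array left out, *Ly6i* at 0.04 with array weights and -0.11 to 0.07 with 1 array left out, *Mcpt1* at -0.09 to 0.00 with 1 array left out, and *Tnfrsf9* at 0.04 with the mean of all probe sets and -0.45 to 0.03 with 1 array left out. Signal over background limits genes whose mean lies under the array medians.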

Other observations

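Among the 3 CD4 arrays of primed mice, 7 genes known from regulatory or activated T cells were lowest on the second array; they were picked after their values were seen, with no test. *Foxp3* was at 9.71, 7.84 and 9.51, *Ikzf2* at 8.72, 7.89 and 8.94, *Ctla4* at 9.24, 8.50 and 9.17, *Il2ra* at 9.33, 8.69 and 9.38, *Tnfrsf18* at 9.20, 8.55 and 9.21, *Tnfrsf4* at 6.96, 6.39 and 7.13 and *Tnfsf11* at 8.54, 7.89 and 8.56. Other genes of activated T cells did not follow this order: *Cd40lg* (8.54, 8.60 and 8.35) was highest on the second array, *Icos* (11.60, 11.51 and 11.40) and *Il2* (5.72, 5.52 and 4.87) were lowest on the third, and *Pdcd1* (4.76, 5.23 and 5.24) on the first. For *Cd3e* (11.50, 11.52 and 11.56), *Lat* (10.96, 10.99 and 10.95) and *Bcl11b* (11.39, 11.41 and 11.41) the 3 arrays lay close together. The second array was nonetheless above every CD11c array for each of the 7 genes. Over all genes tested the 2 groups did not overlap for 71.2%.

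Of 19 survival and death genes 1 was called higher in CD4 cells and 4 in CD11c cells, where 6.38% and 14.8% of all genes tested were. *Bcl2*, which protects lymphocytes, was at 10.35, 10.08 and 10.43 in CD4 cells, against 8.36, 8.45 and 8.45 in CD11c cells (difference 1.87, limma adjusted p = 8.2e-12). Higher in CD11c cells were *Pmaip1* (-2.82), *Bcl2a1a* (-1.59), *Bid* (-1.12, but -0.82 and not called with the mean of all probe sets) and *Casp1* (-1.12), which cuts pro-IL-1 beta and pro-IL-18. The lineage difference of *Il1b* was -5.60 in primed mice and -0.35 in unimmunised mice, and that of *Il18* -5.85 and -2.78. The CD4 arrays of unimmunised mice read the monocyte and macrophage list at 7.37 to 7.68, and those of primed mice at 4.39 to 4.51. They read the neutrophil list at 9.37 to 9.68 and 3.48 to 3.83. The part of these cells in both changes was not tested.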
